A study of Homo sapiens with 10 samples.

Results

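Long intergenic noncoding RNA (lincRNA) probes were measured in MEG-01 cells that had received a miR-1225-3p precursor or a scrambled precursor. The array carries 8278 probes named for a lincRNA region, of 42405 probes other than controls. A probe entered when at least 3 arrays of the 5 in a group, whichever group, flagged it as well above background, which kept 2677 lincRNA probes among 20648 kept probes of all kinds. They fell in 2156 named regions of the 5304 on the array, and each region is known by its chromosome, start, end and a closing letter, F or R, read here as its strand.

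MEG-01 is an established human line from a megakaryoblastic leukemia. Both groups were nucleofected, one with 200 nM of pre-miR-1225-3p and the other with 200 nM of a negative control precursor of random sequence, and total RNA was taken after 24 hours from 5 cultures a group, labelled as biological replicates. The scrambled samples carry a source label of no treatment, but their titles and the methods describe the control transfection. Uptake was followed in parallel with a GFP plasmid, so each value is an average over cells that took up the precursor and cells that did not.

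LincRNAs are transcripts without a long reading frame that arise between protein-coding genes. Many stay in the nucleus, where some bind chromatin-modifying complexes, and many are spliced and polyadenylated like mRNA. Nuclear exosome subunits trim or degrade a share of them. A microRNA acts mainly in the cytoplasm, where its seed pairs with target transcripts and lowers their stability or translation. The mature microRNA supplied by the precursor is shown because it is the agent that differs between the groups. Capitals mark its seed, bases 2 to 8, and the sequence is that of RefSeq (GRCh38.p14, chr16:2090195-2090216, minus strand).
hsa-miR-1225-3p: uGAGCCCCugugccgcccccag
Matches of this seed to the lincRNAs were not tested, since no sequence of the regions was used here. Coordinates of regions are those in the probe names, on hg19 as the file header states, apart from 8 kept probes whose names are marked hg18. Gene, exon and intron annotation of the regions was not used here.

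Between 23.1% and 44.6% of the lincRNA probes were well above background on a single array, and 3697 were so on none. Of the kept probes, 1490 were well above background on all 10 arrays. A further 505 passed through the scrambled arrays only and 122 through the miR-1225-3p arrays only, so the choice of members favours probes that are dim with miR-1225-3p. No spot was saturated, and 17 kept lincRNA probes had a value missing on an array because of an outlier flag. The arrays lay on 2 slides that each held both groups. One array stood apart: miR-1225-3p replicate 5 lay close to the scrambled arrays on most changed probes, and results are given with and without it where it matters. Precision is set by the 5 arrays a group.

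LincRNA probes moved in both directions after miR-1225-3p. With limma and Benjamini-Hochberg adjustment over all kept probes, 738 of the 2677 lincRNA probes (27.6%) had an adjusted p under 0.05, against 35% of all 20648 kept probes. Of these 318 were higher (11.9%, against 16.3% of all kept probes) and 420 were lower (15.7%, against 18.7%). The median log2 fold change was -0.14 with an interquartile range from -0.74 to 0.36, and the median over all kept probes was -0.09. In RNA from whole cultures, fewer cells carrying a transcript and less of it per cell cannot be told apart.

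A called change of more than 2-fold was a rise for 178 lincRNA probes (6.65%, against 5.53% of all kept probes) and a fall for 348 (13%, against 12.4%). All 5 miR-1225-3p arrays lay above all 5 scrambled arrays for 153 lincRNA probes (5.72%, against 7.78% of all kept probes), and all lay below for 47 (1.76%, against 4.82%). Among the 1490 lincRNA probes well above background on all 10 arrays, 399 were called (26.8%, against 34.7% of all such probes). The lincRNA probes were dimmer than the rest, with a median log2 signal of 6.33 against 7.58 for the other kept probes, and the part of signal in these shares was not tested.

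The counts rested on single arrays and on the normalization. Without miR-1225-3p replicate 5, 474 lincRNA probes were higher (17.7%, against 25.2% of all kept probes) and 740 lower (27.6%, against 30.4%). Leaving out miR-1225-3p replicates 1, 2, 3 and 4 gave 463, 223, 254 and 376 called lincRNA probes (17.3%, 8.33%, 9.49% and 14%, against 24.7%, 11.5%, 12.7% and 20.2% of all kept probes). Leaving out scrambled replicates 1 to 5 gave 355, 356, 357, 304 and 616 (13.3%, 13.3%, 13.3%, 11.4% and 23%, against 19.1%, 19.2%, 17.6%, 16.8% and 26.2%). Without normalization between arrays the order of the shares turned, with 11.5% of the lincRNA probes called against 5.93% of all kept probes. Falls made up 56.9% of the called lincRNA probes, but 44.7% after quantile normalization and 76% without normalization between arrays, so which direction was the commoner turned with the scaling. It turned with the arrays too: rises outnumbered falls in 8 of the 10 fits that left out 1 array, the exceptions being those without replicate 5 of either group. Rises were also the commoner by the methods' t-test (253 against 181) and with no filter on dim probes (193 against 142). Each slide held both groups. With slide as a block 280 were higher and 406 lower (25.6% called, against 30.1% of all kept probes). Within slide 1 limma called 222 higher and 375 lower (22.3%, against 27.3%). Within slide 2, the slide of miR-1225-3p replicate 5, it called 0 lincRNA probes and 0 of all 20648 kept probes. At an unadjusted limma p under 0.05 there were 192 lincRNA probes and 1417 of all kept probes on that slide.

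**Figure D1:**
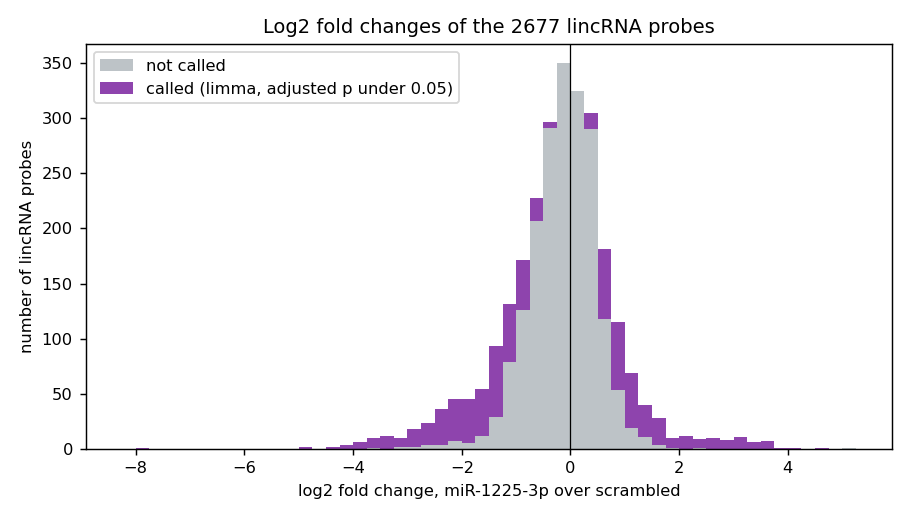
Histogram of the log2 fold change of each kept lincRNA probe, miR-1225-3p over scrambled, in bins of 0.25, with the number of probes on the vertical axis. Called probes (purple) lie stacked on probes that were not called (grey). The falls reach further than the rises, from -7.94 to 5.12.

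The largest rises among probes that were detected on all 10 arrays and had no overlap between the groups came from 8 regions on 7 chromosomes and lay between 3.19 and 3.65 on the log2 scale. At chr19:28262571-28262880 (R), probe A_19_P00805812 had log2 signals of 9.65, 10.68, 12.39, 11.50 and 7.44 on miR-1225-3p replicates 1 to 5. On scrambled replicates 1 to 5 its signals were 7.03, 7.05, 6.52, 6.66 and 6.16. The rise was 3.65 on the log2 scale (SE 0.77, limma adjusted p = 0.0150), and replicate 5 lay just above the scrambled arrays, so that the rise was 4.35 without it.

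Probe A_19_P00809728 at chrX:102081895-102094900 (F) behaved alike, with log2 signals of 9.96, 11.15, 12.68, 11.79 and 8.22 with miR-1225-3p against 7.78, 7.49, 7.11, 6.99 and 6.57 with scrambled precursor. Its log2 fold change was 3.57 (SE 0.71, limma adjusted p = 0.0146). For A_19_P00804960 at chr13:33888375-33923550 (R), the signals were 11.00, 11.93, 13.36, 13.00 and 9.09 against 8.51, 8.50, 8.27, 8.04 and 7.26. In each of these the miR-1225-3p arrays fell in the same order, with replicate 3 highest and replicate 5 lowest. A_19_P00322581 at chr2:213778734-213781783 (R) rose by 3.50 and A_19_P00329018 at chr12:96998894-97004069 (F) by 3.46 on the log2 scale. The remaining rises were A_19_P00331350 at chr8:130695693-130741043 (R, 3.33), A_19_P00805607 at chr10:131977935-131987135 (F, 3.28) and A_19_P00805393 at chr2:186292980-186496280 (F, 3.19), also as log2 fold changes.

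**Figure D2:**
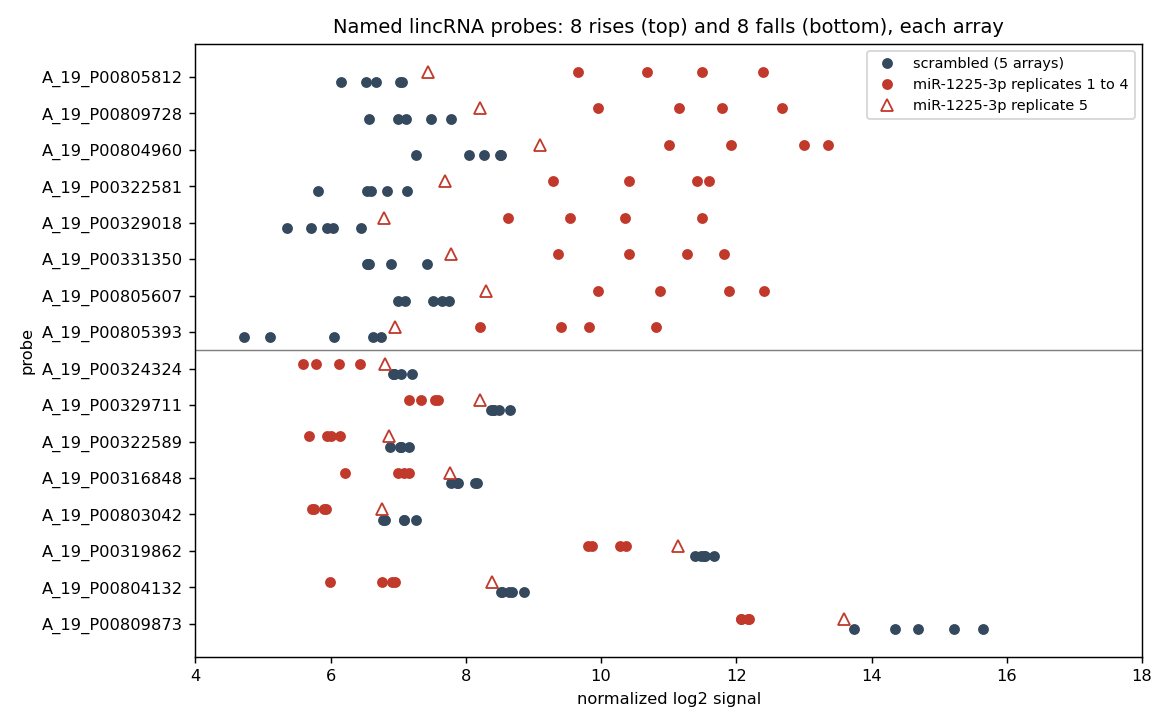
Normalized log2 signal (horizontal) of the 8 largest rises (upper rows) and 8 largest falls (lower rows), named by probe on the vertical axis, with a point for each array. Scrambled arrays are dark, miR-1225-3p replicates 1 to 4 are red and replicate 5 is an open triangle, which lies nearest to the scrambled arrays in every row.

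The falls that met the same rule were smaller, and 20 lincRNA probes met it against 98 rises. The rule leaves out probes whose groups overlap. Among called changes of more than 2-fold, miR-1225-3p replicate 5 lay inside the scrambled range for 318 of 346 falls and 80 of 175 rises. The rule was not counted over all kept probes, so these numbers are no result about lincRNAs. The deepest fall under the rule was A_19_P00809873 at chr12:41584958-41825333 (R). Its log2 signals were 12.06, 12.18, 12.06, 12.17 and 13.59 on miR-1225-3p replicates 1 to 5 and 15.65, 15.22, 14.69, 14.34 and 13.74 on the scrambled arrays. It fell by 2.32 on the log2 scale (SE 0.40, limma adjusted p = 0.0144), with replicates 1 to 4 within a narrow band and replicate 5 next to the lowest scrambled array.

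A_19_P00804132 at chr16:20866393-20866851 (R) fell by 1.65 on the log2 scale, from 8.54, 8.64, 8.86, 8.69 and 8.52 on the scrambled arrays to 6.95, 6.91, 6.77, 5.99 and 8.38 with miR-1225-3p. A_19_P00319862 at chr14:101296681-101298460 (F) fell by 1.23, from 11.67, 11.53, 11.38, 11.48 and 11.52 to 10.37, 10.27, 9.87, 9.80 and 11.14. In both, 4 of the miR-1225-3p arrays lay well below the scrambled range and replicate 5 just under it. The other 5 falls lay between -0.98 and -0.86 on the log2 scale. They were A_19_P00803042 (chr4:2556227-2614827, F), A_19_P00316848 (chr7:130781997-130782621, R), A_19_P00322589 (chr15:25322012-25328606, F), A_19_P00329711 (chr20:3850525-3857695, F) and A_19_P00324324 (chr2:133030255-133039274, R).

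A fall of larger size, whose groups overlapped, is named here after its values were seen. A_19_P00316159 at chr2:7214634-7218011 (R) had log2 signals of 13.63, 14.74, 15.12, 15.61 and 15.26 on the scrambled arrays. With miR-1225-3p they were 9.39, 3.42, 3.53, 2.06 and 16.25, so replicate 5 was the brightest of all arrays while the others ranged from dim to very dim. Only 2 of the 5 arrays with miR-1225-3p detected it above background, so the fitted log2 fold change of -7.94 (limma adjusted p = 0.0298) rests in part on background-level signals. On the side of the rises, A_19_P00802663 at chr3:187546031-187607831 (R) had the largest called log2 fold change, 4.55 (SE 0.95, limma adjusted p = 0.0148). Its signals were 8.58, 9.74, 11.94, 10.53 and 6.31 against 6.01, 5.39, 5.04, 4.81 and 3.1, and it was well above background on 3 of the scrambled arrays.

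Detection itself differed fully between the groups at 5 probes. They were chosen for that difference, so their folds are a description with no test. The fold was taken against the higher of the dim probe's own signal and the lowest signal well above background on each array. It is a bound only where that lowest signal was the higher. A_19_P00806010 at chrX:48575281-48593031 (F) was well above background on all 5 miR-1225-3p arrays and no scrambled array, with log2 signals of 6.21, 7.03, 8.99, 8.04 and 4.34 against 3.43, 3.38, 3.70, 3.82 and 3.26. Its fold of 10.6 was the plain difference of the group means and no lower bound, since its own signals were the ones used. A_19_P00802207 at chr4:8490675-8515950 (R) was at least 3.80-fold higher. Its log2 signals were 5.13, 5.29, 5.59, 5.20 and 5.05 with miR-1225-3p and 2.57 to 3.43 with scrambled precursor, so here replicate 5 lay with its own group. In the other direction, A_19_P00315593 at chr5:173116459-173132852 (F) was at least 4.17-fold lower and A_19_P00328571 at chr10:28812669-28820669 (F) at least 3.13-fold lower with miR-1225-3p. The first had 2.30, 4.33, 3.46, 3.02 and 4.44 with miR-1225-3p against 6.87, 6.70, 5.05, 5.52 and 4.62, and the second had 4.06, 3.25, 3.28, 4.35 and 4.30 against 6.27, 5.84, 5.96, 5.87 and 4.23, where scrambled replicate 5 lay among the miR-1225-3p arrays.

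The fifth, A_19_P00331213 at chr1:204331377-204340727 (F), was not called (limma adjusted p = 0.112). Its log2 signals with miR-1225-3p were 6.45, 6.89, 8.19, 19.84 and 4.78. The fold of 34.8, again the plain difference of the group means and no lower bound, rested mainly on replicate 4. On the scrambled arrays its signals lay between 3.36 and 4.86. Without replicate 4 the log2 fold change was 2.57.

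Kept probes of the opposite letter in the regions that rose most did not rise with them. The array carries another probe, in each case of the opposite strand letter, for 6 of these 8 regions, and 4 of those were kept. Their log2 fold changes were -0.46 at A_19_P00329263, -0.19 at A_19_P00326887, 0.09 at A_19_P00800492 and 0.12 at A_19_P00804867 (limma adjusted p between 0.393 and 0.878). Most of this rests on dim signals. A_19_P00329263 and A_19_P00326887 were each well above background on 1 miR-1225-3p array, and on 4 and 3 scrambled arrays. A_19_P00800492 was so on 3 arrays of each group, and only A_19_P00804867 on all 5 of each. Overlapping regions under other names are not among these partners. Joining the overlapping F regions around A_19_P00809728 (chrX:102024088-102166119) gave 6 kept probes. Of them 2, that probe included, were called higher and 1 lower. Among the falls, the second F probe at chr20:3850525-3857695, A_19_P00331109, had a log2 fold change of 0.35 that was not called (limma adjusted p = 0.226). The R probe there, A_19_P00326104, was well above background on 3 scrambled arrays and on no miR-1225-3p array. At chr16:20866393-20866851 the second R probe, A_19_P00806876, had log2 signals between 10.35 and 11.03 on all arrays and a log2 fold change of -0.19 that was not called.

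Over all regions, probes of the same strand letter mostly moved together and probes of opposite letters did not. There were 187 pairs of kept probes that share a region and a letter, in 185 regions, and in 131 of them (70.1%) both changes had the same sign. Both probes were called in the same direction in 26 pairs, 14 upward and 12 downward, and in opposite directions in 3. Among 395 pairs of opposite letters, in 334 regions, the changes had the same sign in 196 (49.6%). Of those pairs, 17 were called in the same direction and 18 in opposite directions.

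The median absolute difference between the log2 fold changes of a pair was 0.39 within a letter and 0.91 between letters. The correlation across pairs was 0.47 within a letter and -0.02 between letters, as a description over probes that share arrays and, within a letter, may share sequence. The share of pairs with the same sign stayed between 69.0% and 74.9% within a letter over the alternatives run. Between letters it stayed between 46.1% and 52.2%, apart from 64.6% without normalization between arrays.

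**Figure D3:**
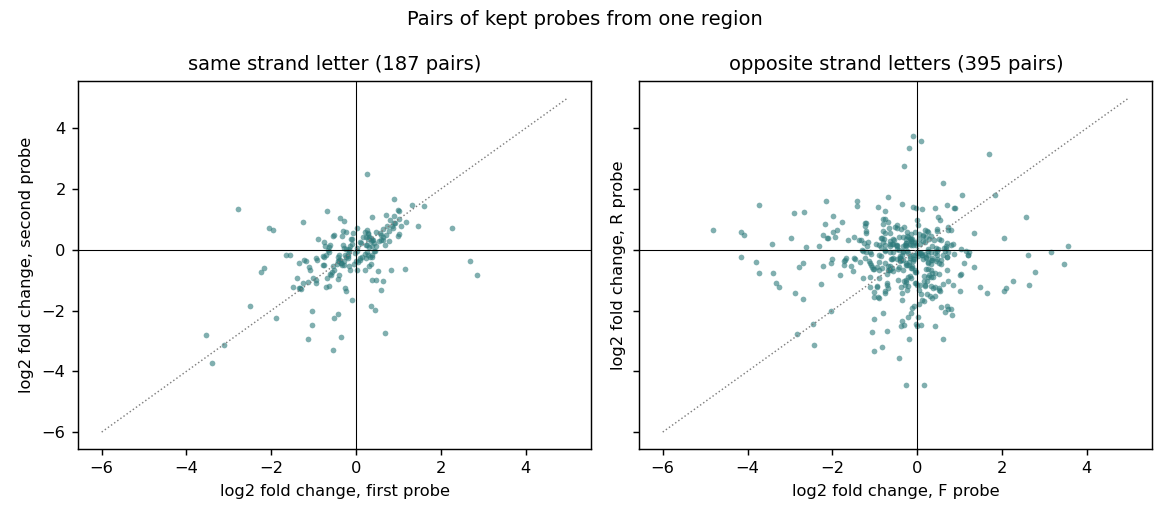
Log2 fold changes of 2 kept probes from the same region plotted against each other, for 187 pairs of the same strand letter (left) and 395 pairs of opposite letters (right), a point for each pair, with the line of equality dotted. The left cloud follows the line (r = 0.47) and the right cloud does not (r = -0.02).

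Strong changes were set beside their partners as well. Of the 178 probes called higher by more than 2-fold, 21 had another kept probe of their region and letter, and 12 of these had one called higher too, while 2 had one called lower. A kept probe of the opposite letter existed for 43, with one called higher for 6 and one called lower for 12. Of the 348 probes called lower by more than 2-fold, 42 had a kept partner of the same letter, called lower for 18 and higher for 1. A kept partner of the opposite letter existed for 115 of them, called lower for 20 and higher for 14. Counted over any overlapping region, the picture was more mixed: of 72 strong rises with a kept one of the same letter, 30 had one called higher and 16 one called lower, and of 168 strong falls 88 had one called lower and 17 one called higher.

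The 6 regions with kept probes of both letters and the highest signal in the dimmer letter show the range. At chr2:20722919-20803669 the R probe A_19_P00810523 had log2 signals of 11.28, 11.28, 11.54, 11.37 and 10.84 with miR-1225-3p and 10.41, 10.46, 10.43, 10.32 and 10.49 with scrambled precursor. It rose by 0.84 on the log2 scale (SE 0.14, limma adjusted p = 0.0144). The F probe of that region, A_19_P00812158, fell by 2.18 (SE 0.61, limma adjusted p = 0.0259), from between 17.11 and 18.44 to 15.55, 14.82, 15.17, 13.58 and 17.52. Its call was lost under 9 of 23 alternatives, and that of the R probe under 3. Taken within each array, the R signal relative to F rose by 3.02 on the log2 scale (exact permutation p = 0.0159, two-sided, where 5 against 5 arrays cannot go below 0.00794).

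A rise on R with a fall on F was also seen at chr1:181309852-181429627. The R probe A_19_P00804525 rose by 1.60 (limma adjusted p = 0.0247), with miR-1225-3p signals of 13.99, 14.24, 14.84, 14.53 and 12.25 and scrambled signals between 11.66 and 12.74. The F probe A_19_P00803996 fell by 2.16 (limma adjusted p = 0.0180), with 11.42, 11.41, 11.48, 10.85 and 13.88 against 13.17 to 14.52. The call of the R probe was lost under 8 of 23 alternatives and that of the F probe under 2. Replicates 1 to 4 lay outside the scrambled range on both letters and replicate 5 lay inside it on both. The R signal relative to F rose by 3.76 (exact permutation p = 0.0317, two-sided).

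At chr5:72707719-72723794 both letters fell by a like amount. The R probe A_19_P00330778 had log2 signals of 13.86, 12.71, 13.77, 11.14 and 16.38 with miR-1225-3p and 17.93, 16.25, 15.67, 15.93 and 16.01 with scrambled precursor, so that replicate 5 lay above every scrambled array but replicate 1. It fell by 2.78 (SE 0.84, limma adjusted p = 0.0314). The F probe A_19_P00332252 had a log2 fold change of -2.84 that was not called (limma adjusted p = 0.0643), with scrambled replicate 1 missing because of an outlier flag. Between the letters the change differed by 0.45 (exact permutation p = 0.111 over 9 arrays, two-sided). The call of the R probe was lost under 13 of 23 alternatives.

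For the remaining 3 of these regions, the change on F was the more negative. At chr2:107293518-107358418 the F probe A_19_P00807615 fell by 1.48 (limma adjusted p = 0.0161), while A_19_P00808320 (F, -1.24) and A_19_P00808923 (R, -0.29) were not called, and R relative to the mean of F rose by 1.07 (exact permutation p = 0.00794). At chr8:94968549-94974474 neither letter was called and R relative to F rose by 1.02 (exact permutation p = 0.0397). At chr8:32772708-32913758 the F probe A_19_P00812901 fell by 1.22 (limma adjusted p = 0.0223), a call lost under 7 of 23 alternatives. The R probe there, A_19_P00808190, had a log2 fold change of 0.78 that was not called, with a difference between letters of 2.00 (exact permutation p = 0.0556). These are raw p-values over 6 regions compared.

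The regions with the most kept probes under 1 name held 3 or 4 each. At chrX:97546119-97657219 the R probe A_19_P00802276 fell by 1.34 on the log2 scale (limma adjusted p = 0.0163), from between 14.58 and 15.46 to 13.29, 13.25, 13.47, 13.46 and 14.70. Its second R probe, A_19_P00812573 (-1.26), and its F probe, A_19_P00810812 (0.52), were not called. At chr6:42725472-42759772 the R probe A_19_P00326267 fell by 1.95 (limma adjusted p = 0.0144) while A_19_P00326737 (R, 0.65), A_19_P00806028 (F, 0.79) and A_19_P00326821 (F, 0.72) were not called. The F probe A_19_P00331578 at chr3:160210781-160217931 fell by 1.20 (limma adjusted p = 0.0347), a call lost under 12 of 22 alternatives, and its other 3 probes were not called. None of the 3 kept probes at chr13:51646474-51767474 was called.

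Many regions overlap under different names, and merging those of the same letter gave 1818 merged regions, of which 150 held 3 or more kept probes. In 45 of these no probe was called and in 18 there were calls in both directions. In 17, at least 3 probes were called in the same direction and none in the other. Probes of a merged region share arrays and may share transcripts, so they are not replicates.

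The most densely covered merged region, chr15:25239838-25420017 (F), held 30 kept probes, and its calls changed direction when ordered by the start of the named regions. Of 11 probes whose named regions start nearest its beginning (25239838 to 25264230), 7 were called higher, by 0.60 to 1.05 on the log2 scale, and none lower. Of the next 10 (25272882 to 25345633), 4 were called lower, from -0.91 to -0.56, and none higher. Among these falls, A_19_P00319630 was dim, well above background on 1 miR-1225-3p array and 3 scrambled arrays. Of the last 9 (25356910 to 25365058), 3 were called higher, by 0.41 to 1.00. These stretches were drawn after the values were seen. Over all kept probes 16.3% were called higher and 18.7% lower. A_19_P00803771, called higher in the first stretch, has a named region from 25258482 to 25368607, so its own place along the merged region is not known.

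A_19_P00319540, in the first stretch, had log2 signals of 8.07, 8.08, 8.12, 8.24 and 7.27 with miR-1225-3p and 7.06, 6.91, 6.83, 6.76 and 7.05 with scrambled precursor. A_19_P00320136, in the second, had 10.00, 10.46, 10.27, 10.50 and 11.03 against 11.26, 11.18, 11.25, 11.21 and 11.35. A_19_P00320155, in the last, had 7.04, 6.83, 6.88, 6.65 and 6.14 against 5.68, 5.98, 5.73, 5.59 and 5.56. In all 3 the groups did not overlap. The log2 fold changes were 1.03, -0.80 and 1.00.

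The strand letter separated the changes at chr6:86381806-86396056. All 10 kept F probes had log2 fold changes below 0, with a median of -2.10, and 6 were called lower, against 18.7% of all kept probes. Of the 27 kept R probes, 3 were called lower and none higher, and their median was 0.06. Among 20 R probes with a scrambled mean log2 signal above 12, 1 was called, and the other 19 had log2 fold changes between -0.07 and 0.18.

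Single probes show this plainly. A_19_P00320324 (F) had log2 signals of 6.32, 6.42, 6.55, 6.84 and 8.95 with miR-1225-3p and 10.72, 10.44, 8.96, 9.42 and 7.72 with scrambled precursor, so the groups overlapped through replicate 5 of both groups. Its log2 fold change was -2.44 (SE 0.65, limma adjusted p = 0.0226). The R probe A_19_P00316701 had 16.47, 16.53, 16.57, 16.49 and 16.26 against 16.34, 16.32, 16.29, 16.32 and 16.14, a log2 fold change of 0.18 (SE 0.12, limma adjusted p = 0.222). A_19_P00317523 (R) was among the 3 exceptions, with 11.36, 10.57, 10.37, 9.69 and 12.36 against 12.36, 12.32, 12.11, 12.14 and 11.95. The median over the F probes was between -2.58 and -1.33 under all alternatives run, and that over the R probes between 0.01 and 0.64.

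**Figure D4:**
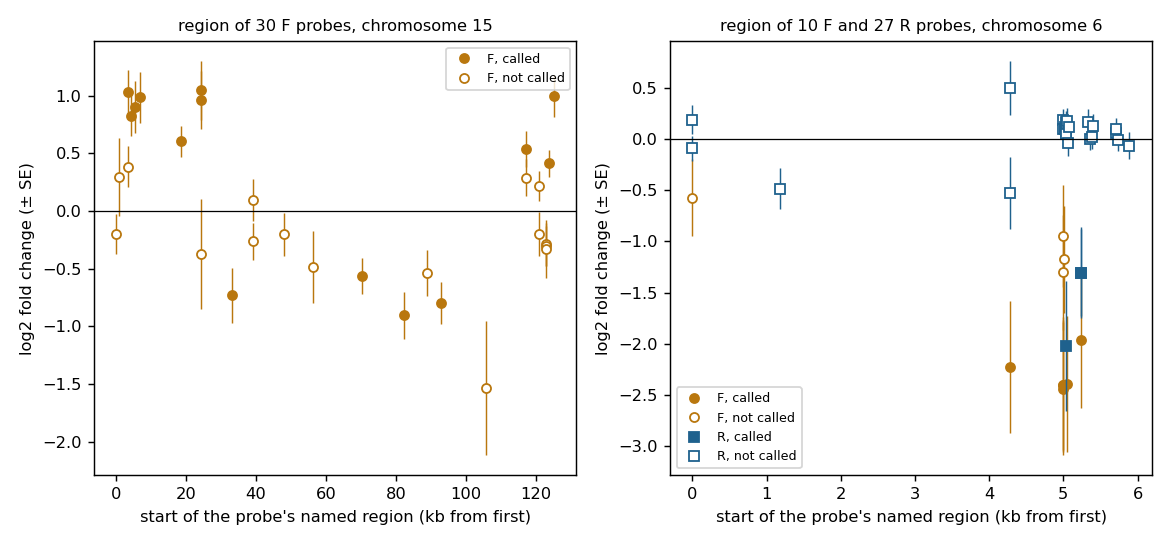
Log2 fold change with its SE (vertical) of every kept probe of the chromosome 15 region (left) and the chromosome 6 region (right), against the start of the probe's named region in kb from the first. F probes are circles, R probes squares, and filled symbols are called. On the left the called probes among the 30 lie above 0, then below, then above again, and on the right the F probes lie below 0 while most R probes lie near it.

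Rises prevailed at chr22:31365634-31376450 (F), where 6 of 9 probes were called higher, against 16.3% of all kept probes. None was lower in that region and the median log2 fold change was 0.78. A_19_P00325015 had log2 signals there of 10.99, 11.10, 11.10, 11.18 and 9.98 against 10.07, 10.05, 9.83, 10.01 and 9.94. Of the 5 miR-1225-3p arrays, 4 stood above the scrambled range by more than the whole of that range, and replicate 5 lay inside it. The rise was 0.89 (SE 0.23, limma adjusted p = 0.0199) and 1.11 without replicate 5. Over the alternatives run the median of the 9 probes stayed between 0.30 and 1.09.

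Falls prevailed at chr14:101292462-101313629 (F), where 4 of 7 probes were called lower, none was higher and the median was -1.23. Over all kept probes 18.7% were called lower, and the counts given here were not tested against that share. At chr4:53577368-53617807 (R), 5 of 11 probes were called lower and 1 higher, with a median of -0.87 that became 0.23 when detection on all 10 arrays was required. At chr7:130528285-130800860 (R), 6 of 19 probes were called lower and none higher, with a median of -0.21. Of these falls, A_19_P00321782, A_19_P00316000 and A_19_P00316739 passed through the scrambled arrays only. They were well above background on 2, 1 and 2 miR-1225-3p arrays, so their folds rest in part on background-level signals. At chr8:129001429-129113502, 4 of 16 R probes were called lower and none higher (median -0.79, and -1.32 to -0.19 over the alternatives run). The overlapping F letter there, chr8:129000922-129118918, had 1 of 16 called lower and a median of -0.11 (-0.33 to 0.09).

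A merged region could hold calls in both directions. At chr6:30255819-30293571 (R), 3 of 15 probes were called higher and 2 lower, with a median of -0.58 that became 0.05 when detection on all 10 arrays was required. A_19_P00319970 rose by 1.90 on the log2 scale (SE 0.43, limma adjusted p = 0.0161), with 13.60, 14.32, 14.80, 14.37 and 12.37 against 12.59, 12.18, 11.27, 11.93 and 11.96. A_19_P00316432, with an overlapping named region, rose by 1.64 (limma adjusted p = 0.0244), with miR-1225-3p replicate 3 missing because of an outlier flag. The third rise there, A_19_P00318213, was 0.65 (limma adjusted p = 0.0188).

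Strand letters as a whole did not differ much in their counts. Of 1397 kept F probes 168 were called higher and 222 lower (27.9% called). Of 1280 kept R probes 150 were higher and 198 lower (27.2% called), where 35% of all kept probes were called. The median log2 fold changes were -0.17 and -0.12.

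By chromosome, the share of lincRNA probes called was highest on chromosome 14, at 42.1% of 76 kept probes, of which 13 were higher and 19 lower. It was lowest on chromosomes 21 (17% of 47) and 19 (17.8% of 90), where 35% of all kept probes of the array were called. The share called higher ran from 4.26% on chromosome 21 and 4.44% on chromosome 19 to 21.1% on chromosome 22, where 12 of 57 kept probes rose and 7 fell. On chromosome 15, 18 of 95 were higher and 13 lower, and 10 of those 18 rises came from the single merged region described above. These shares rest on small counts with probes that share regions, and no test of the difference between chromosomes was made.

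**Figure D5:**
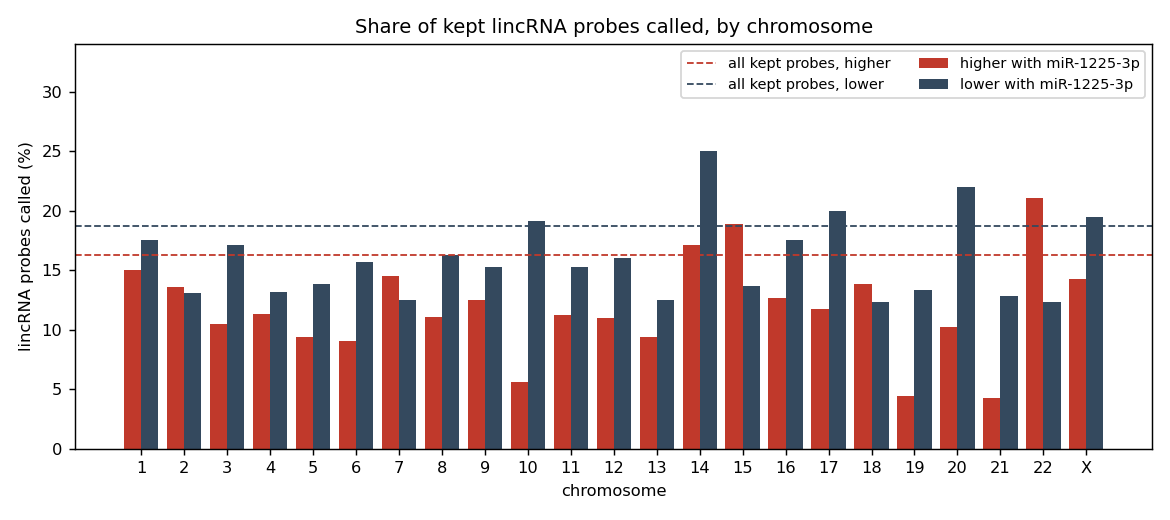
Share of kept lincRNA probes called higher (red) or lower (dark) with miR-1225-3p on each chromosome, in percent. Dashed lines give the shares over all kept probes, 16.3% higher and 18.7% lower. Most bars lie below their line, with chromosomes 14, 15 and 22 above the line for rises.

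Brighter lincRNA probes were called more often. When all kept probes were divided by mean signal into 4 bins of equal size, 23.3%, 22.9%, 32.2% and 43.2% of the lincRNA probes in them were called, from the dimmest bin up. Over all kept probes these shares were 29.2%, 35.6%, 39.8% and 35.4%. In the brightest bin, 28.5% of 361 lincRNA probes were called lower and 14.7% higher, against 19% and 16.4% of all kept probes there. By length of the named region, 31.4% were called in the shortest group (70 to 7276 bases), 24.5% in the middle and 26.8% in the longest (18610 to 1038476 bases). Over all lengths it was 27.6% of the lincRNA probes, against 35% of all kept probes. The difference between lengths was not tested.

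Replicate 5 of the miR-1225-3p group was the array nearest to the scrambled arrays for most strong changes. This was so for 167 of the 175 strong rises without a missing value and for 330 of 346 strong falls. It lay inside the scrambled range for 80 of those rises and 318 of those falls. Among rises of more than 4-fold, 51 of 64 had the miR-1225-3p arrays in the same order, with replicate 3 highest, then 4, 2, 1 and 5. The cause of this order was not tested.

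Beyond the region probes, the array carries probes for lincRNAs and other long noncoding RNAs that have gene names. Of 32 such genes listed, 13 were tested, 4 rose and none fell, where 16.3% of all kept probes rose and 18.7% fell, and the median log2 fold change was 0.07. LINC00467 rose by 1.02 (SE 0.25, limma adjusted p = 0.0192), MIAT by 0.99 (SE 0.35, limma adjusted p = 0.0476) and OIP5-AS1 by 0.56 (SE 0.18, limma adjusted p = 0.0399). LINC00467 had 2 kept probes, and the other had a log2 fold change of 0.11. MALAT1, an abundant nuclear transcript, had a log2 fold change of -1.10 that was not called (SE 0.54, limma adjusted p = 0.126).

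Among 14 tested genes for proteins that work with lincRNAs at chromatin, 3 rose and 6 fell (against the same 16.3% and 18.7% of all kept probes), with a median of -0.31. EZH2, the methyltransferase of Polycomb complex 2, rose by 0.67 (SE 0.14, limma adjusted p = 0.0146), and its paralog EZH1 fell by 1.36 (SE 0.31, limma adjusted p = 0.0165). KDM1A, a histone demethylase, fell by 2.54 (SE 0.70, limma adjusted p = 0.0246), from a probe that passed through the scrambled arrays only and was detected on 2 of the 5 arrays with miR-1225-3p. CTCF, which organizes chromatin loops, fell by 2.32 (SE 0.77, limma adjusted p = 0.0408).

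Of 16 tested genes for the nuclear exosome and its adaptors, which degrade nuclear noncoding RNA, 4 rose and 1 fell, with a median of 0.12, where 35% of all kept probes were called. EXOSC6, a subunit of the ring, fell by 2.13 (SE 0.50, limma adjusted p = 0.0170), again from a probe detected on 2 of the 5 arrays with miR-1225-3p. EXOSC3, of the RNA-binding cap, rose by 1.30 (SE 0.30, limma adjusted p = 0.0165) and EXOSC1, also of the cap, by 0.97 (SE 0.19, limma adjusted p = 0.0146).

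Of 10 megakaryocyte markers, 8 were tested. Their mean log2 signal lay between 8.60 and 8.69 on the scrambled arrays and between 7.57 and 8.51 with miR-1225-3p, with replicate 5 highest in its group. ITGA2B, the platelet integrin alpha chain, fell by 1.39 (SE 0.47, limma adjusted p = 0.0439), FLI1 and NFE2 also fell, and the other 5 were not called, where 18.7% of all kept probes fell. Of 6 markers of other blood cells, CD3E, CD14 and ELANE were tested, with mean log2 signals of 4.95 to 6.16 on the scrambled arrays and 5.70 to 6.53 with miR-1225-3p. CD3E rose by 1.96 (limma adjusted p = 0.0328) and was well above background on 3 miR-1225-3p arrays and 1 scrambled array. The other 2 were not called, with log2 fold changes of 0.36 for CD14 (limma adjusted p = 0.474) and -0.94 for ELANE (limma adjusted p = 0.0550). ELANE was well above background on all 10 arrays, so the list did not move in the same direction. The part of these shifts in the lincRNA results was not tested.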

How the data were processed

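Single-colour Agilent SurePrint G3 arrays of 10 MEG-01 cultures were analysed, 5 a group, grouped by the sample titles. Per array, the authors deposited the spot table of Feature Extraction 10.7.3.1 (version from the submitters' processing notes). In these tables, as deposited, the processed signal is an intensity from which the authors' scanner software had subtracted background. They also deposited a table of normalized log2 values for 29271 probes, none with a lincRNA name. The flags in the spot tables were used as given.

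Processed signals were taken to log2 and put through cyclic loess (limma 3.58.1, R 4.3.3, 3 iterations), following the methods. Scaling to the geometric mean of controls, which the methods describe without saying which controls, was not repeated. Control spots (4259) did not enter, outlier-flagged spots became missing values, and replicate spots were averaged. A probe counted as well above background on an array when at least 0.5 of its spots were flagged so. The 2 groups were compared by limma's moderated test (lmFit, then eBayes), and p-values were adjusted over the 20648 kept probes by Benjamini-Hochberg, with a threshold of 0.05, and single probes by an exact permutation test over arrays. The script was tested on simulated data.

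The probes named were the 8 largest called rises and falls well above background on all 10 arrays without overlap of the groups, the probes well above background on all arrays of 1 group and none of the other, the 5 regions with most kept probes, the 6 brightest regions with both strand letters, the other probes of the first 16, and up to 3 called genes of each gene list. The members and lists were chosen with earlier results of these data known. The normalized values correlated with the authors' table, after centring each probe, at 0.980 to 0.996 per array. Gene names come from the RefSeq table of GRCh38.p14, in which 24910 of 42405 probes had a match; for a gene with several kept probes the brightest on average was used. Alternatives covered normalization, background, filters, flagged spots, the test, slide and replicate blocks and leaving out each array.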

Additional observations from a re-analysis of the deposited data

Results flagged for a closer look

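In 9 of 96 groups of values examined, over 48 named probes, 1 array stood apart from the others of its group. Chance would give about 1 in 20, or 4.8 of 96, if the groups were independent. They share arrays and regions, and some probes were picked by their values, so 9 against 4.8 is no test. In 4 of the 9 the array was miR-1225-3p replicate 5, which lay towards the scrambled arrays: 6.76 at A_19_P00803042 (the others 5.72 to 5.93), 13.59 at A_19_P00809873 (12.06 to 12.18), 14.70 at A_19_P00802276 (13.25 to 13.47) and 13.88 at A_19_P00803996 (10.85 to 11.48), all log2 signals. At A_19_P00331213, miR-1225-3p replicate 4 had 19.84 against 4.78 to 8.19. At A_19_P00326737, replicate 3 had 9.25 against 8.35 to 8.44. Among the scrambled arrays, replicate 5 had 4.23 at A_19_P00328571 (5.84 to 6.27), replicate 3 had 11.66 at A_19_P00804525 (12.45 to 12.74) and replicate 1 had 17.93 at A_19_P00330778 (15.67 to 16.25).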

How the results depend on the processing

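Counts of called lincRNA probes, 738 in all, moved with several choices. Without normalization between arrays 308 were called (74 higher, 234 lower), 11.5% against 5.93% of all kept probes. With detection required on all 10 arrays it was 436 (192 and 244), 29.3% against 39.1% of all such probes. With no filter on dim probes it was 335 of the same 2677 (193 and 142), 12.5% against 9.47% of all 42405 probes. Those 2677 had passed the filter and the 42405 had not, so these 2 shares are not alike. By the methods' t-test with Benjamini-Hochberg adjustment it was 434 (253 and 181), 16.2% against 26.5% of all kept probes. Leaving out 1 array gave 223 to 1214 called probes (8.33% to 45.3%, against 11.5% to 55.6% of all kept probes), 142 to 474 higher and 81 to 740 lower. Within slide 2 limma called 0 (0 higher, 0 lower), with 192 lincRNA probes at an unadjusted p under 0.05. In a limma fit with a replicate block, none was called: 0 (0 higher, 0 lower), with 889 at an unadjusted p under 0.05. In both of these fits 0 of all 20648 kept probes were called, with 1417 and 8994 of them at an unadjusted p under 0.05. Arrays of the same number did not deviate together (r from -0.401 to 0.0586). Shifts of whole arrays enter these correlations, so they cannot exclude that the numbers pair the cultures. The median log2 fold change of lincRNA probes was -0.51 without normalization between arrays, and -0.087 with the 75th percentile subtracted, where the medians of all kept probes were -0.31 and 0.11. The cause of these shifts was not tested, beyond fewer arrays or probes entering a fit.

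All 16 named rises and falls kept their direction under the alternatives run, each losing its call under 2 to 6 of 23. Among the 48 named probes followed under the alternatives, which leave out partner probes, directions turned for 5 uncalled ones of crowded or paired regions. With the 75th percentile subtracted the log2 fold change was 0.097 at A_19_P00802654, 0.42 at A_19_P00806839 (there called), 0.43 at A_19_P00808923, 0.23 at A_19_P00811887 and 0.53 at A_19_P00805928. With quantile normalization it was 0.092 at A_19_P00802654 and 0.033 at A_19_P00805928, without normalization 0.0074 at A_19_P00808923 and 0.10 at A_19_P00805928, and within slide 1 it was 0.074 at A_19_P00802654. Without 1 array A_19_P00805928 lay between -0.20 and 0.038, and the uncalled partner A_19_P00800492 turned from 0.09 to -0.05 without miR-1225-3p replicate 5. Opposite-strand pairs changed in the same direction in 64.6% without normalization between arrays. The pair shares and region medians were computed under the alternatives after seeing the data. The authors' normalized values hold no lincRNA name and were not run as an alternative. Dim probes near background limit what fold can be read.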

Other observations

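In 5 of the 150 merged regions with 3 or more kept probes, every kept probe was called in the same direction, each with 3 probes. The rises were at chr1:227844577-227852377 (F), with log2 fold changes of 0.77 to 0.86, and chr16:54952774-54959098 (R), with 0.69 to 1.15. The others fell: chr1:173831852-173837251 (F) from -2.80 to -0.96, chr9:23597225-23684450 (F) from -3.67 to -0.80, and chrX:53685100-53711400 (R) from -2.43 to -1.22. These regions were picked after their values were seen.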
